A study of Mus musculus with 12 samples.

Results

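Ube3b, Tmem222, Ccdc103, Fam187a and Rhbdd2 are 5 of the 55471 annotated genes counted in RNA of mouse brain. An annotated gene, with whatever reads were counted under it, is a feature here. They were selected on their log2 changes and adjusted p-values in stimulated against unstimulated brain, which were positive and past the threshold in one or both kinds of RNA, and on having no gene reported on the opposite strand. Their values in those comparisons are therefore given as a description, with no test. In the GENCODE M21 annotation, 4 of the 5 had no opposite-strand gene over their span. Rhbdd2 did: the pseudogenes Gm15607 and Gm21839 lie inside it on the other strand and share 736 of its 7534 exon bases.

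Adult C57BL6JL male mice aged 3 to 5 months either received maximal electroconvulsive stimulation (MECS), 85 mA for 1 s, and were examined 90 min later, or were naive, handled in parallel without a stimulus. Mixed cortex and hippocampus was homogenized and irradiated with ultraviolet light at 400 mJ/cm2. Total RNA was sequenced from the lysate, called input, and from a precipitate made with an antibody against U1-70K, called U1 RNA. There were 3 libraries in each of 4 groups: MECS input, naive input, MECS U1 and naive U1. No control precipitate was used here, so a difference between U1 and input RNA may hold other differences in recovery.

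U1 snRNP, the particle that holds U1-70K, pairs with 5′ splice sites of nascent transcripts and also restrains cleavage and polyadenylation at premature sites in introns. RNA polymerase II normally runs on for some distance after the poly(A) site of a gene before it is released, and where release is late the RNA can extend into a neighbouring gene. A feature can thus collect reads from its own transcript, from an unannotated transcript, or from a neighbour read through past its end. The sources used here do not give the strand setting of the counting, so a value under a symbol is that of the feature so annotated, and these origins cannot be told apart from the counts.

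The libraries held 704432 to 1962312 counts in genes, 1.42 to 1.84% of the listed reads. Reads listed under no feature made up 88.3 to 91.3%. The 8 neuron, 9 astrocyte, 5 oligodendrocyte, 5 microglia and 7 vascular marker genes examined all had counts in every group. For some these were few, with 1 to 23 counts per library for Aldoc, 4 to 18 for Gad1 and 8 to 22 for Snap25, while Csf1r had 129 to 294. Whether the row of a marker or listed gene holds mostly its own transcript was not tested. Of 10402 features tested with edgeR's quasi-likelihood test in input RNA, 0.606% passed an adjusted p of 0.05 (Benjamini-Hochberg) after MECS, 0.51% as higher and 0.0961% as lower. In U1 RNA 0.386% of 11141 passed, 0.332% as higher and 0.0539% as lower. An unadjusted p under 0.05 was reached by 9.66% in input RNA and 10.5% in U1 RNA. Among features with no opposite-strand gene over their span, 9 of 2720 (0.331%) were higher in input RNA and 4 of 2978 (0.134%) in U1 RNA. Ube3b, Ccdc103 and Fam187a were among those 9, and the 4 were Ube3b, Tmem222, Ccdc103 and Fam187a. The median log2 change over all tested features was -0.02 in each kind of RNA.

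**Figure D1:**
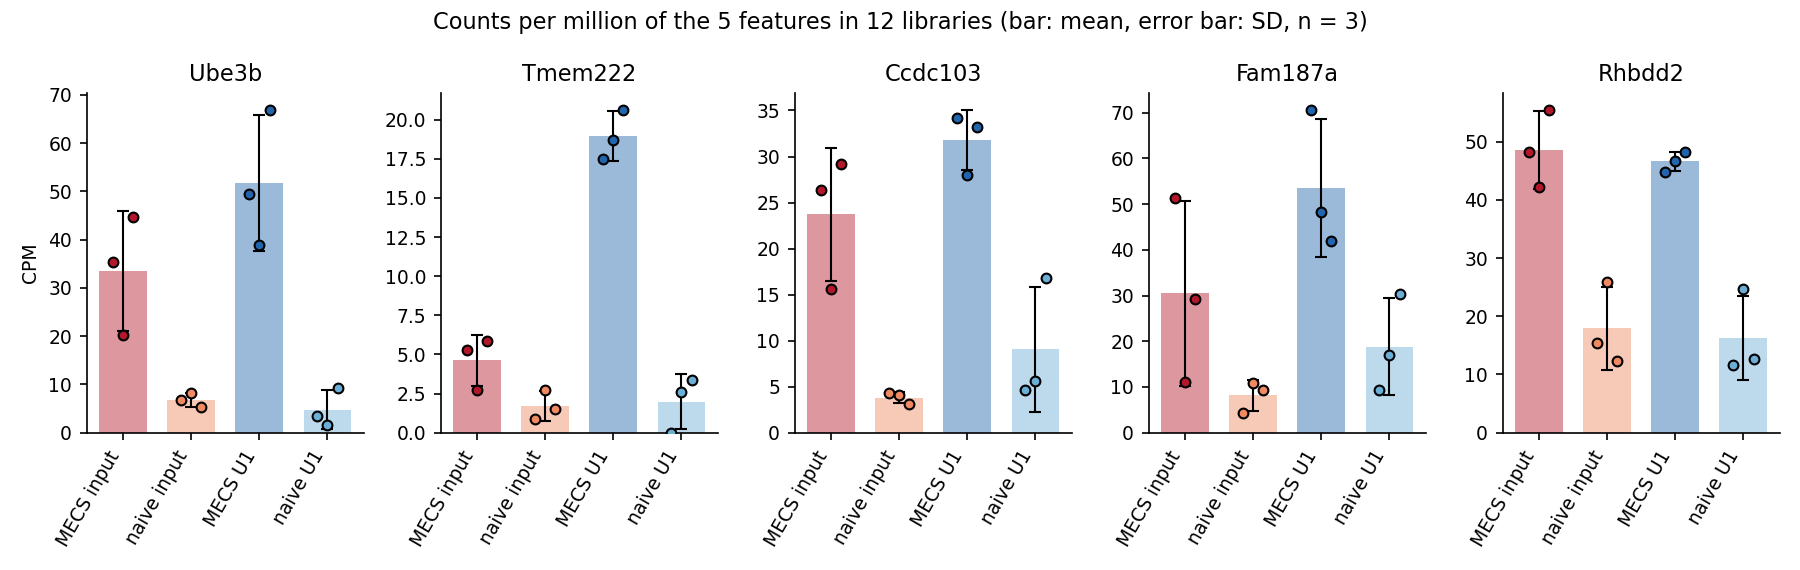
CPM of the 5 features in each of the 12 libraries, grouped as MECS input, naive input, MECS U1 and naive U1. Points are libraries, bars are means and error bars are SD over 3 libraries. For each feature, every MECS library lies above every naive library of the same kind of RNA. This is narrowest for Tmem222 and Fam187a in input RNA. Of all features tested, 10.2% in input RNA and 9.78% in U1 RNA showed the same arrangement.

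Ube3b (ENSMUSG00000029577, chr5:114380607-114421169, plus strand, GRCm38) encodes an E3 ubiquitin ligase of the HECT family, enzymes that pass ubiquitin to their substrates through a catalytic cysteine. In MECS input libraries 1, 2 and 3 it had 47, 22 and 46 counts, or 35.4, 20.2 and 44.8 CPM (counts scaled to the gene counts of the library), against 8, 6 and 7 counts, or 6.86, 8.20 and 5.39 CPM, in naive input. In MECS U1 libraries it had 65, 50 and 107 counts, or 49.4, 39.0 and 66.9 CPM, against 3, 3 and 11 counts, or 3.50, 1.54 and 9.24 CPM, in naive U1. The MECS and naive libraries did not overlap in either kind of RNA, an arrangement with MECS above naive that 10.2% of all features tested in input RNA and 9.78% of those tested in U1 RNA also showed.

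Mean levels of Ube3b were 33.5 ± 12.4 CPM in MECS input and 6.82 ± 1.405 CPM in naive input (SD, n = 3 each). The log2 change was 2.26 (SE 0.40). They were 51.8 ± 14.1 CPM in MECS U1 and 4.76 ± 4.002 CPM in naive U1, a log2 change of 3.50 (SE 0.42), the largest of the 5 in U1 RNA. The change in U1 RNA exceeded that in input RNA by 1.22 on the log2 scale (SE 0.65). The naive U1 libraries held only 3 to 11 counts, so the size of this fold rests on few reads: it was 2.86 on the log2 scale without naive U1 2 and 4.52 without naive U1 3.

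No gene is annotated opposite Ube3b, and the microRNA gene Mir7027, inside it on the same strand, had 0 to 1 count per library. Only 13.1% of the 40563 bp of Ube3b is exon. The nearest opposite-strand gene on its left, Kctd10, starts 98 bp from the start of Ube3b and is transcribed away from it. Kctd10 encodes an adaptor of a cullin ubiquitin ligase. It averaged 19.2 ± 10.4 CPM in MECS input and 18.7 ± 7.30 CPM in naive input, and 14.6 ± 5.33 CPM in MECS U1 and 15.6 ± 8.98 CPM in naive U1 (SD, n = 3 each). Kctd10 passed the test in neither kind of RNA.

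The opposite-strand gene whose 3′ end faces Ube3b is Mmab (chr5:114431034-114444060, minus strand), which encodes an enzyme of vitamin B12 metabolism and ends 9.86 kb beyond the end of Ube3b. The row of Mmab held 0 to 2 counts per library, and no counted feature lies opposite it. On the plus strand, the gene upstream of Ube3b is the myosin gene Myo1h, which ends 15.3 kb before it. Myo1h had 285 to 788 counts per library, but 1530 of its exon bases overlap exons of Kctd10 on the other strand. Myo1h averaged 379.8 ± 89.0 CPM in MECS input and 443 ± 65.3 CPM in naive input, and 459 ± 91.5 CPM in MECS U1 and 449.6 ± 99.6 CPM in naive U1, and did not pass the test in either. Of these neighbours of Ube3b, Kctd10 and Myo1h were thus not called, and Mmab was too low to be tested.

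Tmem222 (ENSMUSG00000028857, chr4:133266045-133277792, minus strand) encodes a transmembrane protein. In MECS input libraries it had 7, 3 and 6 counts, or 5.28, 2.75 and 5.84 CPM, against 1, 2 and 2 counts, or 0.857, 2.73 and 1.54 CPM, in naive input. The lowest MECS and highest naive library were all but equal here, and Tmem222 fell under the filter on low counts in input RNA. In MECS U1 libraries it had 23, 24 and 33 counts, or 17.5, 18.7 and 20.6 CPM, against 0, 5 and 4 counts, or 0, 2.57 and 3.36 CPM, in naive U1.

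The U1 groups of Tmem222 were far apart, with 18.9 ± 1.60 CPM in MECS U1 and 1.98 ± 1.76 CPM in naive U1 (SD, n = 3 each). The log2 change was 3.01 (SE 0.52). The means in input RNA were 4.62 ± 1.65 CPM after MECS and 1.71 ± 0.949 CPM in naive brain. Its level per exon kb was 2.31 CPM in MECS input and 0.854 CPM in naive input, and 9.46 CPM in MECS U1 and 0.987 CPM in naive U1.

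**Figure D2:**
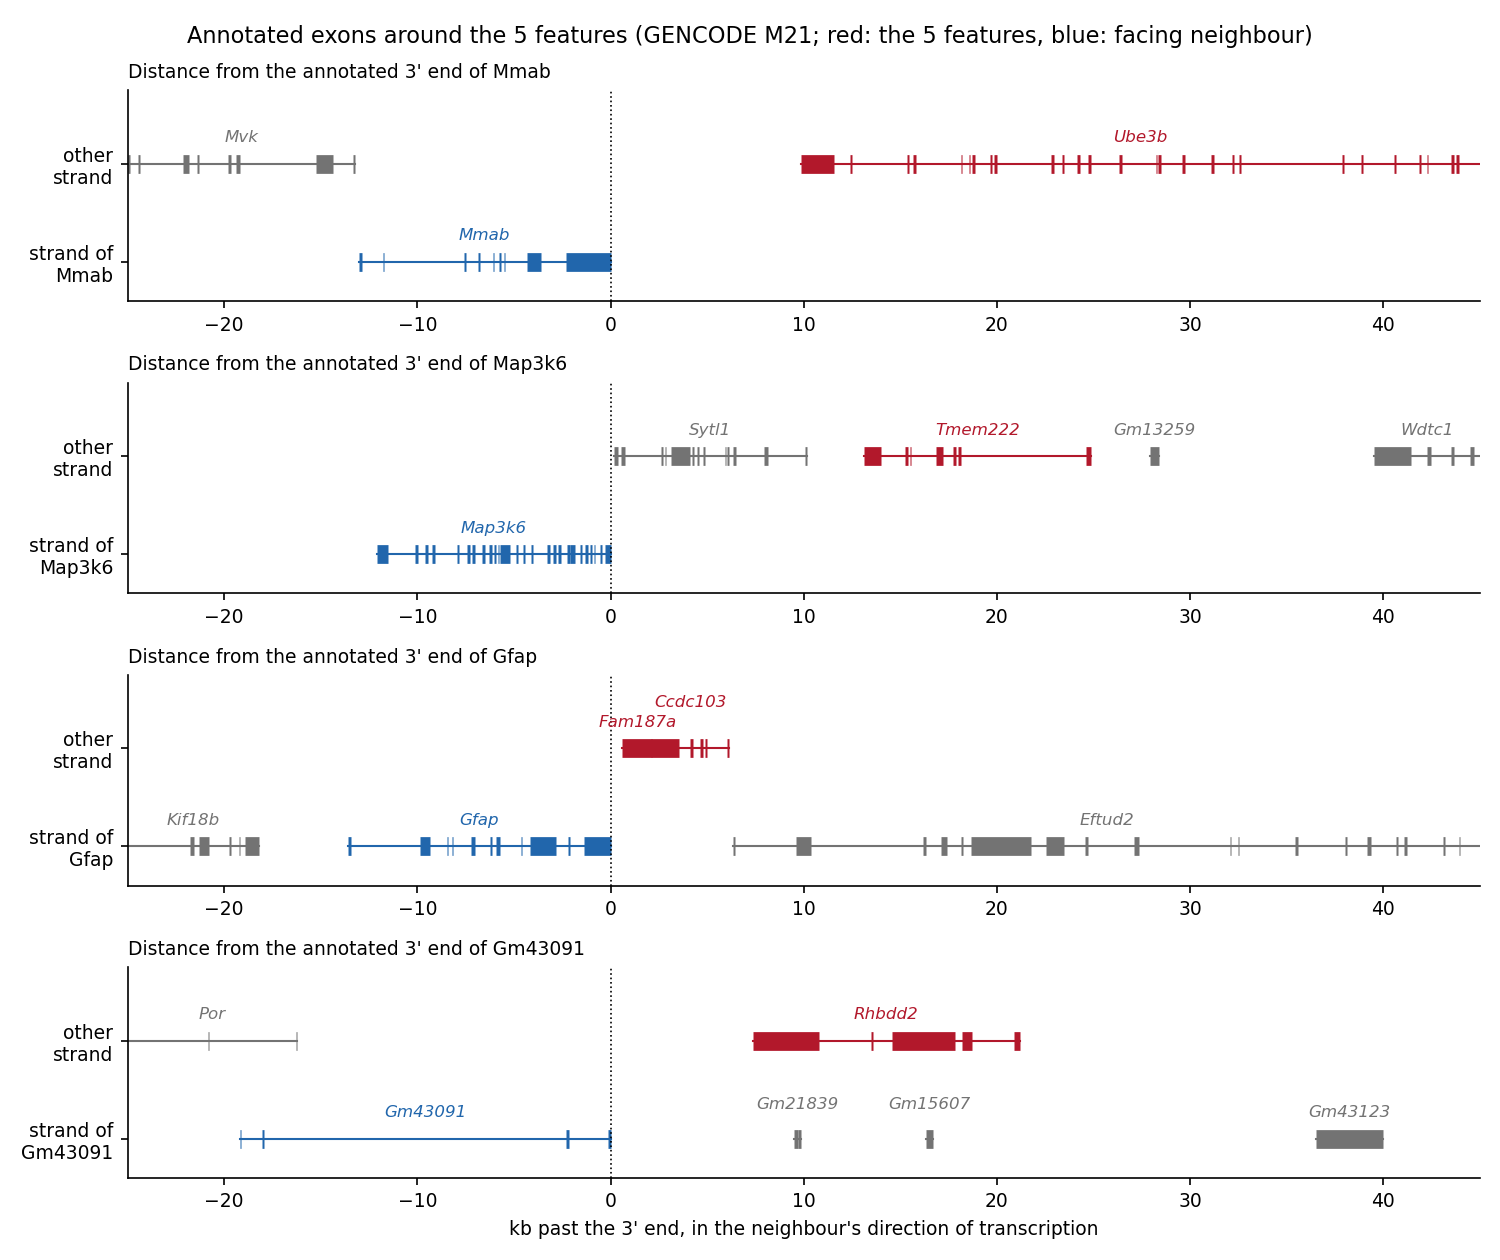
Annotated exons (boxes) and gene spans (lines) around the 5 features at 4 loci, drawn to scale in kb from the 3′ end of the nearest opposite-strand gene that faces them. Positive values run past that 3′ end in the neighbour's direction of transcription; Fam187a begins 0.604 kb past the end of Gfap, Sytl1 lies between Map3k6 and Tmem222, and Gm15607 and Gm21839 lie inside Rhbdd2.

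The opposite-strand gene facing Tmem222 is Map3k6 (chr4:133240818-133252929, plus strand), which encodes a stress-activated protein kinase. Along the direction in which Map3k6 is transcribed, Sytl1 begins 0.16 kb past its 3′ end, Tmem222 13.1 kb past it, the pseudogene Gm13259 27.9 kb and Wdtc1 39.5 kb past it, all on the other strand. Sytl1, which encodes a synaptotagmin-like protein that binds the vesicle GTPase Rab27, is thus the feature nearest to the end of Map3k6.

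Sytl1 (chr4:133253090-133263113, minus strand) was not among the selected features. In MECS input it had 62, 20 and 19 counts, or 46.7, 18.3 and 18.5 CPM, against 5, 10 and 11 counts, or 4.29, 13.7 and 8.47 CPM, in naive input. In MECS U1 it had 142, 73 and 115 counts, or 107.9, 56.9 and 71.9 CPM, against 24, 59 and 56 counts, or 27.98, 30.3 and 47.05 CPM, in naive U1. Its MECS libraries all lay above its naive ones in both kinds of RNA, as did those of 10.2% of all features tested in input RNA and 9.78% in U1 RNA.

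The log2 changes of Sytl1 were 1.70 (SE 0.44) in input RNA and 1.11 (SE 0.25) in U1 RNA, neither of which passed, with adjusted p = 0.0590 and adjusted p = 0.0509 by edgeR's quasi-likelihood test. Sytl1 passed under 5 of 12 alternatives in input RNA and 7 of 13 in U1 RNA, and without MECS input 1 its change in input RNA was 1.10. Map3k6 itself averaged 25.3 ± 8.27 CPM in MECS input and 17.1 ± 5.76 CPM in naive input, and 39.1 ± 16.3 CPM in MECS U1 and 44.5 ± 5.58 CPM in naive U1 (SD, n = 3 each). Its log2 changes, 0.46 (SE 0.34) and -0.24 (SE 0.27), did not pass and differed in sign.

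Per kb of exon, the levels past the end of Map3k6 were ordered by distance in MECS U1 RNA. Sytl1 stood at 31.3 CPM per exon kb, Tmem222 at 9.46, Gm13259 at 3.23 and Wdtc1 at 0.873. Sytl1 was above Tmem222 per exon kb in 12 of 12 libraries, and their summed counts gave a ratio per exon kb of 5.02 in MECS input and 4.14 in naive input, and 3.28 in MECS U1 and 12.3 in naive U1. Gm13259 held 0 to 5 counts per library and Wdtc1 3 to 12, so their places below Tmem222 rest on few reads. In naive input and naive U1 RNA, Tmem222 and Wdtc1 lay at 0.854 to 1.53 CPM per exon kb, with Wdtc1 the higher in both.

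**Figure D3:**
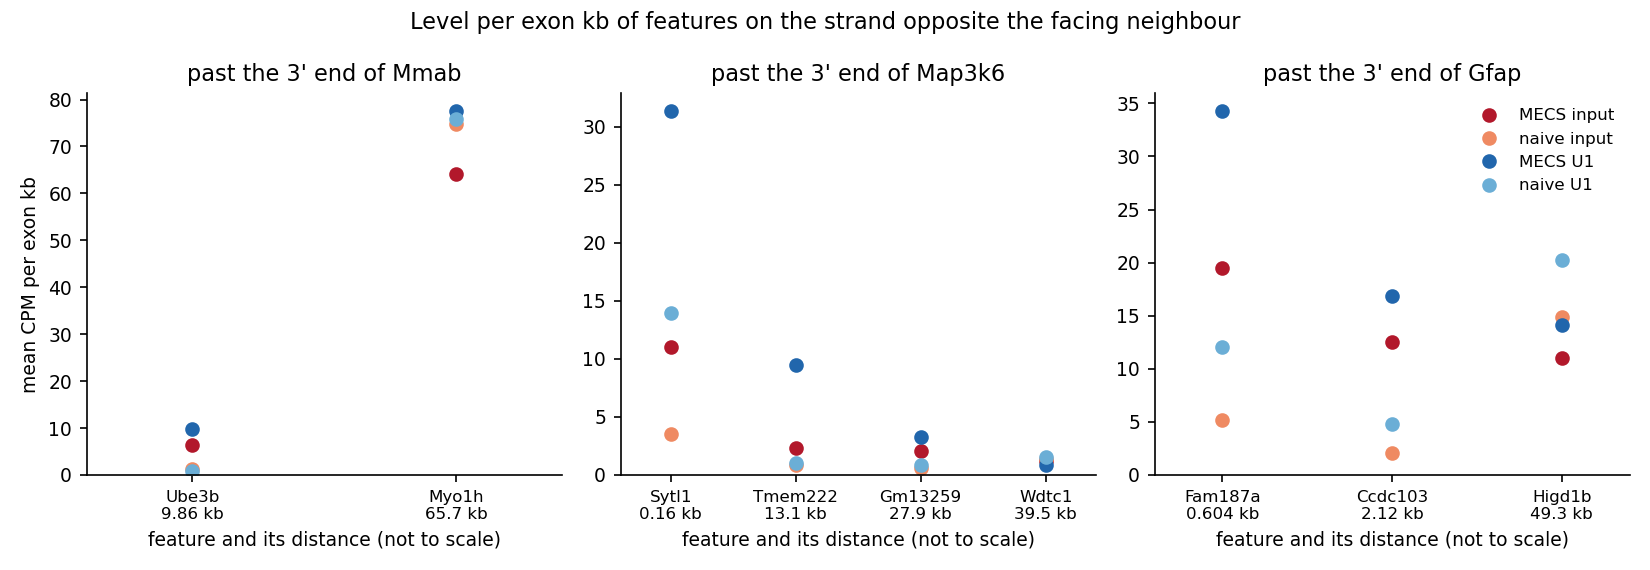
Mean level per kb of exon (vertical axis, CPM per exon kb) of the features that lie past the 3′ ends of Mmab, Map3k6 and Gfap on the other strand, in order of their distance from that end, in the 4 groups. Sytl1 at 0.16 kb is the highest of its locus in all 4 groups. Fam187a at 0.604 kb is the highest of its locus in both MECS groups, but Higd1b at 49.3 kb lies above it in both naive groups. Past Mmab the distant Myo1h is far above Ube3b in all 4 groups.

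Ccdc103 (ENSMUSG00000020930, chr11:102881204-102885216, plus strand) encodes a factor that attaches dynein arms to the axoneme of motile cilia. In MECS input libraries it had 35, 17 and 30 counts, or 26.4, 15.6 and 29.2 CPM, against 5, 3 and 4 counts, or 4.29, 4.10 and 3.08 CPM, in naive input. In MECS U1 libraries it had 45, 36 and 53 counts, or 34.2, 28.05 and 33.2 CPM, against 4, 11 and 20 counts, or 4.66, 5.65 and 16.8 CPM, in naive U1. Every MECS library lay above every naive one, and naive U1 3 was well above the other 2 naive U1 libraries.

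Mean levels of Ccdc103 were 23.7 ± 7.19 CPM in MECS input and 3.82 ± 0.649 CPM in naive input (SD, n = 3 each). The log2 change was 2.57 (SE 0.47), the largest of the 4 that could be fitted in input RNA. They were 31.8 ± 3.29 CPM in MECS U1 and 9.04 ± 6.74 CPM in naive U1, a log2 change of 1.77 (SE 0.38). The change in U1 RNA minus that in input RNA was -0.81 (SE 0.63). Without naive U1 3 the change in U1 RNA was 2.55.

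Fam187a (ENSMUSG00000075510, chr11:102885169-102886731, plus strand) is a gene of 1 exon whose first 48 bases overlap the last exon of Ccdc103 on the same strand. The long noncoding RNA gene Gm26668 (chr11:102863337-103075903, plus strand), not analysed here, spans both. In MECS input libraries Fam187a had 68, 12 and 30 counts, or 51.2, 10.99 and 29.2 CPM, against 5, 8 and 12 counts, or 4.29, 10.9 and 9.24 CPM, in naive input. In MECS U1 libraries it had 93, 62 and 67 counts, or 70.7, 48.3 and 41.9 CPM, against 8, 33 and 36 counts, or 9.33, 17.0 and 30.2 CPM, in naive U1. In input RNA the groups were barely apart, since MECS input 2 and naive input 2 were almost level at 12 and 8 counts, while in U1 RNA they did not overlap.

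Mean levels of Fam187a were 30.5 ± 20.2 CPM in MECS input and 8.15 ± 3.45 CPM in naive input (SD, n = 3 each). The log2 change was 1.90 (SE 0.45). They were 53.6 ± 15.1 CPM in MECS U1 and 18.8 ± 10.6 CPM in naive U1, a log2 change of 1.42 (SE 0.31). Without MECS input 1 the change in input RNA was 1.29. Both changes carried the same sign as those of its partner Ccdc103, with which it may share reads over their overlap. How reads over both genes were counted is not given. Reads listed as ambiguous made up at most 0.0195% of the listed reads of a library, over all genes, which gives no number for this overlap. Whether the pair share reads was not tested.

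The opposite-strand gene facing both is Gfap (chr11:102887336-102900912, minus strand), which encodes the intermediate filament protein of astrocytes. The 3′ end of Gfap lies 0.604 kb beyond the end of Fam187a and 2.12 kb beyond the end of Ccdc103. Gfap averaged 18.2 ± 4.06 CPM in MECS input and 22.9 ± 8.02 CPM in naive input, and 23.4 ± 3.24 CPM in MECS U1 and 29.3 ± 4.22 CPM in naive U1 (SD, n = 3 each). Its log2 changes of -0.35 (SE 0.35) and -0.38 (SE 0.28) did not pass the test, and both had the sign opposite to that of Fam187a and Ccdc103. No counted feature has exons opposite those of Gfap.

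Past the end of Gfap, Fam187a comes before Ccdc103, and per exon kb it was the higher of the pair in 11 of 12 libraries. Their summed counts gave a ratio of Fam187a to Ccdc103 per exon kb of 1.62 in MECS input and 2.52 in naive input, and 2.003 in MECS U1 and 2.66 in naive U1. The ratio was thus lower in the MECS group of each kind of RNA, with no test made of it. Higd1b, the next feature in that direction at 49.3 kb, stood at 10.99 CPM per exon kb in MECS input and 14.9 in naive input, and at 14.1 in MECS U1 and 20.2 in naive U1. Fam187a stood at 19.5 CPM per exon kb in MECS input and 5.22 in naive input, and at 34.3 in MECS U1 and 12.1 in naive U1. Higd1b was thus above Fam187a in both naive groups and below it in both MECS groups. Higd1b did not pass the test in either comparison.

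On the left, Eftud2 starts 218 bp from the start of Ccdc103 and is transcribed away from it. Eftud2 encodes a GTPase of the U5 snRNP, a core part of the spliceosome. It averaged 90.4 ± 11.2 CPM in MECS input and 71.4 ± 20.5 CPM in naive input, and 304.8 ± 74.5 CPM in MECS U1 and 291.9 ± 97.3 CPM in naive U1 (SD, n = 3 each). Eftud2 passed the test in neither comparison of MECS with naive brain.

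Rhbdd2 (ENSMUSG00000039917, chr5:135632618-135646448, plus strand) encodes a rhomboid-related membrane protein of the Golgi. In MECS input libraries it had 64, 46 and 57 counts, or 48.2, 42.1 and 55.5 CPM, against 18, 19 and 16 counts, or 15.4, 26.0 and 12.3 CPM, in naive input. In MECS U1 libraries it had 59, 60 and 77 counts, or 44.8, 46.7 and 48.2 CPM, against 10, 48 and 15 counts, or 11.7, 24.7 and 12.6 CPM, in naive U1. The groups stood well apart in both kinds of RNA, and in the naive groups library 2 was the highest each time.

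Mean levels of Rhbdd2 were 48.6 ± 6.68 CPM in MECS input and 17.9 ± 7.15 CPM in naive input (SD, n = 3 each). The log2 change was 1.45 (SE 0.30). They were 46.6 ± 1.68 CPM in MECS U1 and 16.3 ± 7.25 CPM in naive U1, a log2 change of 1.38 (SE 0.28). The changes in U1 and input RNA differed by -0.08 (SE 0.42), the smallest difference among the 5.

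The pseudogenes opposite Rhbdd2 had more counts per length than Rhbdd2 itself, which averaged 4.29 CPM per exon kb over the 12 libraries. Gm21839 averaged 213.9 CPM per exon kb over the same libraries and Gm15607 averaged 68.3. Gm21839 changed by a log2 of -0.18 (SE 0.21) in input RNA and 0.05 (SE 0.20) in U1 RNA, and Gm15607 by -0.23 (SE 0.34) and -0.35 (SE 0.25), none of which passed. Both pseudogenes lie wholly inside exons of Rhbdd2, so without the strand setting reads at those bases cannot be assigned to one or the other. A processed pseudogene also resembles the gene it was copied from, and reads shared with such a copy are uncertain.

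The opposite-strand gene facing Rhbdd2 is the long noncoding RNA gene Gm43091 (chr5:135653810-135672987, minus strand), which ends 7.36 kb beyond it and had 0 to 7 counts per library. The nearest protein-coding one, Tmem120a, ends 89.0 kb away with Por in between. No neighbour of Rhbdd2 that could be tested was called in either comparison of MECS with naive brain. Gm43091 was too low to be tested in either, and Por was too low in U1 RNA.

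The last bases of the facing neighbours are shown because a run through that end would have to pass the polyadenylation signal, the hexamer AATAAA or ATTAAA, set in capitals. They were read 5′ to 3′ from the GENCODE M21 transcripts (GRCm38).
Gfap, chr11:102887336-102887365, minus strand: agaAATAAAgacatgtgccatagacttcca
Map3k6, chr4:133252900-133252929, plus strand: ataaactATTAAAcagaacacttgctacca
Mmab, chr5:114431045-114431074, minus strand: AATAAAttccgcatgaatgctacataaatc
Gm43091, chr5:135653810-135653839, minus strand: aaacttgtatcctcaagggctggtgagatg
The hexamer begins 27 bases before the end of Gfap and 23 before that of Map3k6. In Mmab it begins 41 bases before the annotated end, and 11 bases at that end are left off. The last 60 bases of Gm43091 held neither hexamer. A hexamer in these letters is a description and does not show where RNA was cut in these samples.

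Taking the loci as a group, 41 other counted features were gathered. They overlapped, neighboured or lay within 100 kb of the 5, or lay opposite a gene that overlaps or neighbours them. Some of the neighbours and of the features opposite them, such as Pom121 and Plcd3, were more than 100 kb away. In input RNA 16 could be tested and 0 were called by edgeR's quasi-likelihood test, with 2 at an unadjusted p under 0.05. DESeq2 gave 3 of them an adjusted p and called 0. In U1 RNA 18 could be tested and 0 were called, with 1 at an unadjusted p under 0.05. DESeq2 gave 12 of them an adjusted p and called 1. Their median log2 changes were -0.20 in input RNA and -0.13 in U1 RNA. Reads that fall between genes were not analysed here, so whether RNA runs without a break from the end of Mmab, Map3k6, Gfap or Gm43091 into the selected features was not tested.

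**Figure D4:**
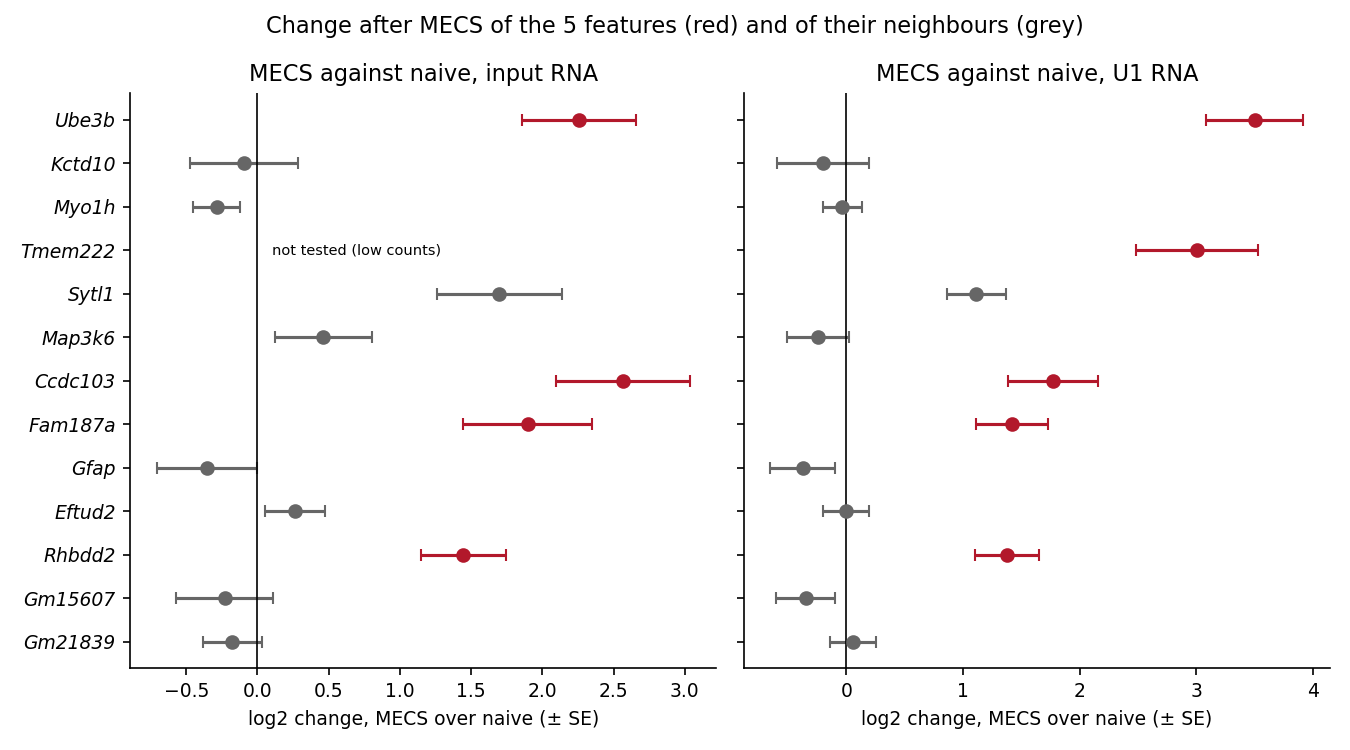
Log2 change of MECS over naive (horizontal axis, point ± SE) in input RNA (left) and U1 RNA (right) for the 5 features in red and 8 of their neighbours in grey. The 8 neighbours drawn lie near 0 with the exception of Sytl1, at 1.70 in input RNA and 1.11 in U1 RNA. Tmem222 was too low to be fitted in input RNA. Mmab and Gm43091, which face Ube3b and Rhbdd2, were too low to be fitted in either and are not drawn.

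Promoters were compared for the letters of 4 motifs to which activity-dependent transcription factors bind. The RefSeq table (GRCm38.p6, 250 bases before to 50 after each start) held Ube3b, Tmem222, Ccdc103 and Rhbdd2, 4 of the 5, with no entry for Fam187a. On both strands none of the 4 promoters held the cyclic AMP response element TGACGTCA, the AP-1 motif TGANTCA, the CArG box or the EGR motif GCGGGGGCG. Of 32851 promoters of the same length, 1.79% held the first, 7.81% the second, 1.63% the CArG box and 2.91% the EGR motif. The result says only that these letters were not in this window.

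The promoter of Ccdc103 held an inverted repeat that resembles the X-box, an element bound by RFX transcription factors in front of many cilium genes. It was seen on reading the sequence and then searched for as GTTGC and GCAAC, 5 bases each, with 3 bases between them, set in capitals with the spacer.
Ccdc103, chr11:102881212-102881241, plus strand: ggtggcgccGTTGCTAGGCAACaatctctg
It begins 3 bases before the RefSeq start of Ccdc103, so that most of it lies past that start. All of it lies inside the GENCODE M21 gene, which starts at chr11:102881204. The repeat is its own reverse complement outside the spacer, and 74 of the 32851 promoters (0.225%) held it. The other 3 promoters of the selected features did not.

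U1 against input RNA, over all 12 libraries and averaged over MECS and naive brain, had no part in choosing Ube3b, Ccdc103, Fam187a and Rhbdd2. Fam187a and Rhbdd2 could so be tested in this contrast. Ube3b had 3 to 11 counts per naive library and Ccdc103 3 to 20. They reached the filter on low counts mostly through MECS libraries, of both kinds of RNA. Their adjusted p-values in this contrast are therefore given as descriptions. In edgeR's quasi-likelihood test 17.4% of 12184 features passed the adjusted threshold, 7.92% as higher in U1 than in input RNA and 9.45% as lower, with a median log2 difference of 0.03 over all. Of these 4 features, 1 was called. Fam187a was higher in U1 RNA by 1.04 (SE 0.30, adjusted p = 0.0106), a difference seen in 6 of 6 animals.

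The U1 to input ratio of Fam187a, on the log2 scale, was 0.46, 2.09 and 0.51 in the 3 MECS animals and 1.04, 0.61 and 1.66 in the 3 naive animals. Neither state passed alone: the difference was 0.79 (adjusted p = 0.165) in MECS libraries and 1.29 (adjusted p = 0.0794) in naive libraries by the same edgeR test. It was also lost without naive input 1, at 0.84 (adjusted p = 0.0719), and without naive U1 3, at 0.80 (adjusted p = 0.0719).

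Ccdc103 was higher in U1 RNA in 6 of 6 animals by 0.84 (SE 0.32), which missed the threshold in the edgeR test, with adjusted p = 0.0635 and a 95% interval of 1.17 to 2.75 for the fold. Its ratios were 0.37, 0.83 and 0.18 in MECS animals and 0.11, 0.42 and 2.27 in naive animals, where the third animal stood apart. Without naive U1 3 the difference was 0.45 (adjusted p = 0.420). It passed with library size scaling (adjusted p = 0.0426), without naive U1 1 (adjusted p = 0.0406) and without naive U1 2 (adjusted p = 0.0202).

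Tmem222 is given without a test in this contrast, because it was selected in U1 RNA alone and reached the filter on low counts through the MECS U1 libraries, which held 23 to 33 counts against 0 to 7 in the other libraries. Its ratios were 1.64, 2.56 and 1.74 in MECS animals and -1.44, -0.08 and 0.92 in naive animals, so that U1 was above input RNA in 4 of 6 animals. The fitted difference over both states was 1.24 (SE 0.49).

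Ube3b and Rhbdd2 had differences near 0, at 0.04 (SE 0.37) and -0.01 (SE 0.22), with adjusted p = 0.963 and adjusted p = 0.991 by edgeR. The 95% interval of the fold of U1 over input RNA was 0.619 to 1.71 for Ube3b and 0.740 to 1.34 for Rhbdd2. The ratios of Ube3b were 0.47, 0.93 and 0.57 in MECS animals and -0.88, -2.09 and 0.73 in naive animals. Its average near 0 therefore joined positive values in all 3 MECS animals with negative ones in 2 of 3 naive animals. Those of Rhbdd2 lay between -0.20 and 0.15 in MECS animals and between -0.39 and 0.03 in naive animals.

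**Figure D5:**
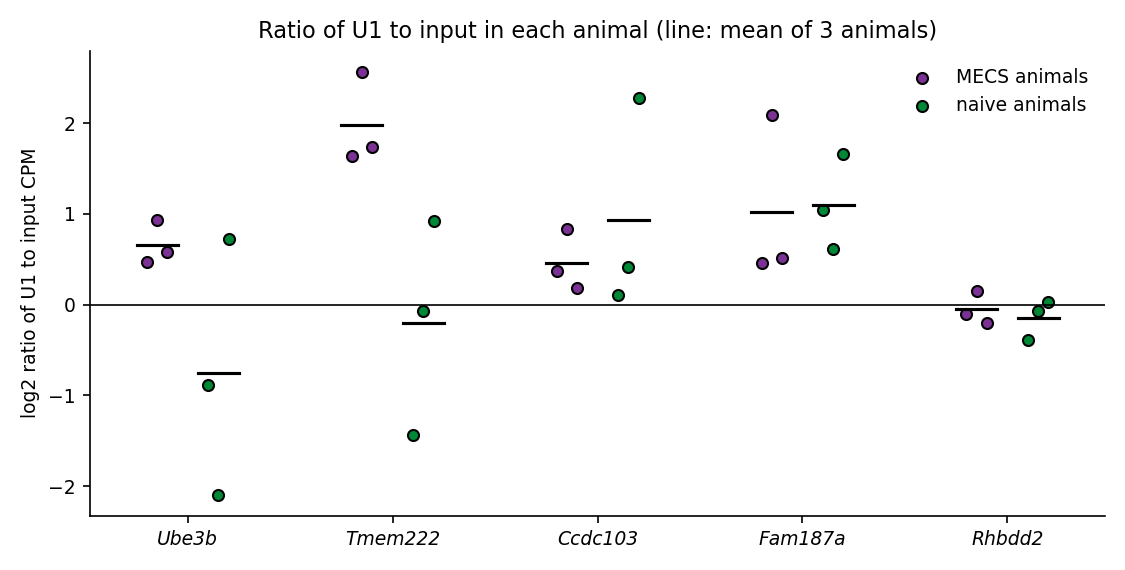
Log2 ratio of U1 to input CPM in each animal (vertical axis, pseudocount of 0.5 CPM) for the 5 features, with MECS animals to the left of naive animals and lines at the mean of 3 animals. Fam187a and Ccdc103 lie above 0 in 6 of 6 animals, Rhbdd2 lies close to 0, and the naive animals of Ube3b and Tmem222 spread on both sides of 0.

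Neighbours at the same loci differed in this contrast too. Sytl1 was higher in U1 RNA by 1.79 (SE 0.25, adjusted p = 1.36e-06 by edgeR), Map3k6 by 0.98 (SE 0.21, adjusted p = 0.000917) and Eftud2 by 1.90 (SE 0.15, adjusted p = 6.7e-12). Gfap was not called, at 0.37 (SE 0.22). Opposite Rhbdd2, Gm21839 was lower in U1 RNA by a log2 of -0.76 (SE 0.15, adjusted p = 0.000202), while Rhbdd2 was near 0. Of the features gathered around the 5 loci, 21 could be tested. Of these, 6 were called by edgeR and 5 by DESeq2, beside 17.4% of all features tested by edgeR.

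The change in the U1 to input ratio with MECS was largest for Tmem222, at 1.56 (SE 1.06), and Ube3b, at 1.22 (SE 0.65), and negative for Ccdc103, Fam187a (-0.50, SE 0.59) and Rhbdd2. Over all features, 0 of 12184 passed the test of this effect by edgeR, with 383 at an unadjusted p under 0.05. The change in this ratio is made of both comparisons that chose the 5, so for them it is a description with no test. Tmem222 was selected in U1 RNA alone and fell under the filter on low counts in input RNA. Its first place here is not apart from that selection. With SEs of this size the 5 cannot be placed in an order by this measure.

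The 5 features varied together over the 12 libraries, which share the groups that chose them, so the following correlations are descriptions. On log2 CPM, Pearson's r between pairs ran from 0.67 for Fam187a with Rhbdd2 to 0.91 for Ube3b with Ccdc103. After the group means were taken away, r was 0.87 for Ube3b with Ccdc103 and 0.68 for Ccdc103 with Fam187a, which share a locus. For pairs at different loci it was 0.76 for Tmem222 with Fam187a, 0.68 for Tmem222 with Ccdc103 and 0.55 for Tmem222 with Rhbdd2. It was -0.14 for Ube3b with Rhbdd2 and -0.0028 for Ccdc103 with Rhbdd2, on 12 libraries of unequal depth.

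MECS input 2 was the lowest MECS input library, in CPM, for all 5 features. Naive U1 3 was the highest naive U1 library for 4 of them, Rhbdd2 being the exception. What sets these libraries apart was not tested.

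Among 9592 named features with a mean log2 CPM of at least 2, the pattern most like that of Ube3b over the 12 libraries was that of Ap3m1 (r = 0.94), an adaptor subunit gene, then Abcc10 (0.91) and Ccdc103 (0.91). Ap3m1 averaged 821 CPM in MECS input and 455 CPM in naive input, and 833 CPM in MECS U1 and 446 CPM in naive U1. For Ccdc103 the closest were Usp40 (0.92), Ap3m1 (0.92) and Ube3b (0.91), and for Rhbdd2 they were Hif1a (0.95), Fam228a (0.94) and Ap3m1 (0.94). For Tmem222 the closest were Aars2 (0.89), Tecr (0.87) and Sox5os4 (0.87), and for Fam187a Zmiz1os1 (0.94), Cdc42se2 (0.91) and Atp1b4 (0.91). Of these features, all but Ube3b, Ccdc103, Aars2 and Atp1b4 overlap a gene on the other strand. Most features tested also do, since only 2720 of 10402 in input RNA and 2978 of 11141 in U1 RNA had no opposite-strand gene over their span.

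Ube3b belongs to a family of which 15 other members could be tested after MECS. Of these HECT ligase genes, tested in each kind of RNA, 0 were called by edgeR, with medians of -0.02 in input RNA and -0.0013 in U1 RNA. There were 1 and 2 of them at an unadjusted p under 0.05, and DESeq2 called 0 of the 2 and 5 to which it gave an adjusted p. Ube3a changed by 0.35 (SE 0.17) in input RNA and 0.56 (SE 0.20) in U1 RNA, and Herc2 by -1.08 (SE 0.38) in U1 RNA, none past the threshold.

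For Ccdc103, 13 other genes of cilium motility were tested in input RNA and 12 in U1 RNA, and 0 were called in either by edgeR. DESeq2 called 0 of the 4 and 7 to which it gave an adjusted p. At an unadjusted p under 0.05 there were 2 in each, and the medians were -0.30 in input RNA and 0.01 in U1 RNA. Dnaaf2, a dynein assembly factor gene, changed by -0.56 (SE 0.18) in input RNA, and Ccdc40, which sets the axonemal repeat, by -0.88 (SE 0.33) in U1 RNA.

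In brain, motile cilia are borne by ependymal cells, and 8 markers of ciliated cells were summed beside Ccdc103. The sum ranged from 69.1 to 99.5 CPM in MECS input and from 87.5 to 119 CPM in naive input, and from 45.7 to 67.0 CPM in MECS U1 and from 58.8 to 61.8 CPM in naive U1. Tmem212, Dynlrb2 and Ccdc153 were at 0 in all MECS input libraries, Dynlrb2 in all naive input libraries, and Tmem212 and Dynlrb2 in all U1 libraries. The part of ciliated cells in the counts of Ccdc103 was not tested. Of 7 choroid plexus markers, Slc22a8 fell by 1.84 (SE 0.43) in input RNA and by 2.08 (SE 0.40) in U1 RNA, the only one called among 3 and 2 tested. Without MECS input 2 the change of Slc22a8 in input RNA was -2.66, and without MECS U1 2 that in U1 RNA was -3.23. DESeq2 gave Slc22a8 no adjusted p in input RNA and did not call it in U1 RNA (-1.98, adjusted p = 0.282). The sums of the 7 ranged from 112 to 154 CPM in MECS input and from 107 to 169 CPM in naive input, and from 118 to 161 CPM in MECS U1 and from 146 to 251 CPM in naive U1. In bulk tissue such as this, fewer cells of a type and less RNA per cell cannot be told apart.

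For Fam187a and Ccdc103, which lie beside Gfap, 9 astrocyte markers were summed. The sum ranged from 279 to 295 CPM in MECS input and from 246 to 439 CPM in naive input, and from 135 to 149 CPM in MECS U1 and from 137 to 173 CPM in naive U1. Of these markers 6 were tested in input RNA and 4 in U1 RNA, and edgeR gave 0 calls, with 0 below an unadjusted p of 0.05. DESeq2 called 0 of the 1 and 3 to which it gave an adjusted p. For 5 and 6 neuron markers and 4 microglia markers in each, edgeR likewise gave 0 calls, with 0 below an unadjusted p of 0.05, and DESeq2 called 0 of the 1 and 1 neuron and 1 and 3 microglia markers to which it gave an adjusted p. Of the 7 vascular markers, 0 of 2 in input RNA and 0 of 5 in U1 RNA were called by edgeR, with 0 and 1 at an unadjusted p under 0.05. DESeq2 gave an adjusted p to 2 vascular markers, in U1 RNA, and called 0.

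For Rhbdd2, 3 other rhomboid family genes were tested in input RNA and 4 in U1 RNA, and 0 were called by edgeR, with 1 in each at an unadjusted p under 0.05. DESeq2 gave an adjusted p to 2 of them, in U1 RNA, and called 0. Rhbdd3, its nearest relative by name, changed by 0.98 (SE 0.27, adjusted p = 0.0748 by edgeR) in input RNA and by 0.05 (SE 0.24) in U1 RNA. Of 38 activity-induced genes looked for, 13 could be tested in each kind of RNA, and the others fell under the filter on low counts. Among the 13, 0 were called by edgeR, with 2 in each at an unadjusted p under 0.05 and medians of 0.04 and -0.07. DESeq2 called 0 of the 1 and 5 to which it gave an adjusted p. Jun changed by -0.80 (SE 0.37) in input RNA and Fosl2 by 1.17 (SE 0.49) in U1 RNA, neither past the threshold. Jun had 8 to 46 counts per library and Fosl2 2 to 23. With counts this low, the absence of calls does not show that activity-induced genes were unchanged. In U1 against input RNA, 4 of 18 activity-induced genes were called by edgeR as lower and 0 as higher, beside 9.45% of all features as lower. DESeq2 called 2 of the 18. The same edgeR test called 3 of 6 neuron markers and 3 of 7 astrocyte markers as lower. It called 3 of 6 vascular markers as higher, beside 7.92% of all features as higher, and 0 of 4 microglia markers in either direction.

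The selection used a threshold on the adjusted p, which the 5 features passed in edgeR's test at 0.000105 to 0.0378, with Tmem222 not tested in input RNA. The features closest to it were Kdm6bos at 0.0495 and Zmiz1os1 at 0.0503 in input RNA, and 1810014B01Rik at 0.0478 and Gm43980 at 0.0502 in U1 RNA. Sytl1, next to Tmem222, stood just outside in U1 RNA.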

How the data were processed

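The submitters' processing notes name build mm10 and, without roles, HISAT2 2.2.0, Salmon 1.4, StringTie 2.1.3, Trimmomatic 0.39, DESeq2 and FastQC. The authors deposited whole-number counts per gene and library, not normalized. The sources used here do not give the counting program, its annotation or its strand setting. Per the labels' protocols, libraries came from a stranded total RNA kit with ribosomal RNA depletion and single-end reads of 100 bp. Of 55471 identifiers, 55144 matched GENCODE M21. Rows naming no gene, 98.2 to 98.6% of listed reads, entered neither library sizes nor tests.

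Groups were compared with edgeR 4.0.16 (quasi-likelihood test, TMM factors, default filterByExpr, Benjamini-Hochberg over all features tested, threshold 0.05) in R 4.3.3. An SE is the ratio of the log2 change to the root of the F statistic. CPM are relative to the TMM-scaled gene counts of 12 libraries. Per-animal ratios used a pseudocount of 0.5 CPM, and log2 CPM for correlations a prior count of 2. Fits were tested on simulated data. Alternatives were RLE or library size scaling, no filter or a CPM filter, DESeq2 1.42.0, 1 fit over 12 libraries, blocks, and leaving out each library.

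The 5 features, the gene lists and the tests were chosen with earlier results of these data known. Named features were the 5, genes that overlap, neighbour or face them, features near them past the threshold, up to 4 genes per list with the smallest p, and the 3 most alike features, clone symbols left out. Sytl1 lay on the same strand next to Tmem222. The inverted repeat in Ccdc103 was chosen after its sequence was seen.

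Titles give every U1 library the same letter and number as an input library, which was read here as the same animal. Deviations from group means correlated at 0.114, 0.219 and 0.116 within MECS animals and 0.016, -0.098 and -0.016 within naive animals. The labels do not say how animals were housed or batched across groups, so p-values measure the spread between these samples. No 2 libraries were identical. The test of the oligodendrocyte markers is not reported here.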

Additional observations from a re-analysis of the deposited data

How the results depend on the processing

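All 5 features kept a positive log2 change of MECS over naive brain under each alternative run in which they could be fitted. They were selected on these comparisons in the same libraries. The calls counted below thus describe how they depend on the processing, and give no separate support. Ube3b stayed past the threshold under 12 of 12 alternatives in input RNA and 13 of 13 in U1 RNA, and Tmem222 under 12 of 12 in U1 RNA. DESeq2 gave no adjusted p to any of the 5 in input RNA, nor to Tmem222 and Ccdc103 in U1 RNA, and had one for 2140 of the 10402 and 6006 of the 11141 features that edgeR tested, so it is not among those alternatives for them. The others lost it under 1 (Ccdc103), 5 (Fam187a) and 3 (Rhbdd2) of 12 in input RNA, and under 4 of 12, 4 of 13 and 4 of 13 in U1 RNA. Leaving out 1 library moved the change of Ube3b between 2.02 and 2.54 in input RNA and between 2.86 and 4.52 in U1 RNA, and that of Fam187a between 1.29 and 2.31 in input RNA and between 1.18 and 1.89 in U1 RNA. In input RNA the call was lost without naive input 3 for Ccdc103 (2.41), without naive input 1, 2 or 3 or MECS input 1 or 3 for Fam187a, and without naive input 1 or 3 or MECS input 3 for Rhbdd2 (1.22 to 1.37). In U1 RNA it was lost without naive U1 1 or 2 or MECS U1 1 or 3 for Ccdc103 (at most 1.74), without naive U1 1 or 2 or MECS U1 1 for Fam187a, and without naive U1 1 or 3 or MECS U1 1 or 3 for Rhbdd2 (1.22 to 1.41). With the replicate number as a block, Fam187a lost its call in U1 RNA (1.41, adjusted p = 0.0684 by edgeR).

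The number of features called in MECS against naive input RNA was 63, and 129 with library size scaling, 111 without a filter, 97 with a CPM filter, 142 with the replicate number as a block, and 19 to 114 with 1 library left out (19, 21 and 31 without naive input 1, 2 and 3, and 114 and 24 without MECS input 1 and 3). In U1 RNA it was 43, and 151 without a filter, 92 with a CPM filter, 105 by DESeq2, 88 in 1 fit over 12 libraries, 35 with the replicate number as a block, and 13 to 225 with 1 library left out (13 and 121 without MECS U1 1 and 2, and 15 and 225 without naive U1 1 and 2). In U1 against input RNA it was 2116, and 918 in MECS and 1141 in naive libraries alone, 2323 with the animal as a block, and 1684 to 2154 with 1 library left out. Replicate numbers of MECS and naive libraries mark different animals, and same-numbered libraries correlated at 0.069, -0.026 and 0 in input RNA and at 0.01, -0.009 and -0.102 in U1 RNA.

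Signs turned in values near 0. With library size scaling, the U1 against input difference of Rhbdd2 was 0.039. With 1 library left out, it ran from -0.24 to 0.15 for Rhbdd2 and from -0.47 to 0.36 for Ube3b. The MECS change ran from -0.50 to 0.00090 for Gm15607 in input RNA, from -0.38 to 0.054 for Gm21839 in input RNA and from -0.014 to 0.19 in U1 RNA, and from -0.11 to 0.27 for Rhbdd3 in U1 RNA. The causes were not tested. Slc22a8 lost its call under 5 of 12 alternatives in input RNA and 3 of 13 in U1 RNA. Counts of 0 to 11 per naive library limit how well the folds of Ube3b and Tmem222 are known.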
